A study of Mus musculus with 14 samples.

Results

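The stromal cells and the mature luminal cells of the mouse mammary gland were compared for their microRNAs (miRNAs), as measured by real-time PCR on plate A of a 2-plate array. The comparison took the 4 stroma samples and the 3 mature luminal samples, 7 of the 14 samples of the series. Of the 584 miRNA assays on both plates, the 375 on plate A were considered, because several control assays of plate B were not detected or came up late in the mature luminal samples. Of these 375, 291 were tested, namely those with normalized values no lower than 2 in 3 or more of the 7 samples. All animals were untreated adult FVB/N mice, the mammary tissue of several mice was pooled, and exact ages were not given in the sources used here. Stroma was sorted as CD29-CD24- cells and mature luminal cells as CD29lo CD24+ CD61- cells. The gate for stroma is a negative one, so the population can hold several cell types. The 3 mature luminal samples came from mouse pools 1, 2 and 3. All 4 stroma samples came from pool 5, which held nothing else. Stroma and pool 5 therefore cannot be told apart, and the p-values given here cover the spread between samples but not that between stroma pools. The labels do not say whether the 4 are separate sorts or repeat preparations of 1 sort, so their spread may be technical and n = 4 counts samples only. The 3 luminal progenitor and 3 MaSC/basal samples of pools 1 to 3 served to estimate the spread and to place the mature luminal levels.

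miRNAs are short RNAs that guide an Argonaute protein to partly complementary mRNAs, which are then translated less or degraded. Pairing rests mainly on the seed, bases 2 to 8 of the mature strand, so miRNAs with the same seed share many targets. Several miRNA groups are known to separate epithelial from mesenchymal cells. The miR-200 family keeps the transcription factors Zeb1 and Zeb2 low in epithelium, and miR-199a and miR-214 are cut from 1 long mesenchymal transcript.

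The mature sequences of the miRNAs on which the comparison turned are printed with the seed in capitals. They were taken from RefSeq on build GRCm38.p6, and for an assay whose name gives no arm the usually abundant strand was taken. The 3 mesenchymal strands each had a seed of their own. The miR-199a hairpin lies on chromosomes 1 and 9, with miR-199a-3p at chr1:162217883-162217904 on the + strand and at chr9:21496498-21496519 on the - strand. The miR-214 strand lies at chr1:162223438-162223459 on the + strand.
miR-199a-3p: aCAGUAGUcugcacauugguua
miR-199a-5p: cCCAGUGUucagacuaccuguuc
miR-214: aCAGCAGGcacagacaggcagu
The 5 members of the miR-200 family fall into 2 seed groups that differ in 1 seed base. miR-200b, miR-200c and miR-429 share AAUACUG, and miR-200a and miR-141 share AACACUG. They lie at 2 places on the - strand, with miR-429, miR-200a and miR-200b on chromosome 4 and miR-141 and miR-200c on chromosome 6.
miR-200b: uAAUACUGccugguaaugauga
miR-200c: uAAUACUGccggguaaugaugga
miR-429: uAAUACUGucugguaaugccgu
miR-200a: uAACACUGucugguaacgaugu
miR-141: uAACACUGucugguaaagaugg
The miR-183 cluster, at chr6:30165962-30169732 on the - strand from the miR-182 to the miR-183 strand, is shown because its 3 seeds are alike but not the same.
miR-183: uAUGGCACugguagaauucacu
miR-96: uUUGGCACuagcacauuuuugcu
miR-182: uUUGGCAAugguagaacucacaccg
The imprinted Dlk1-Dio3 region on the + strand of chromosome 12 held 46 of the 291 assays tested, and 28 of the 42 higher in stroma by 6 or more (log2). Some of these 28 were not detected in any mature luminal sample. Those were tested only through their stroma values, their sizes are bounds, and their count is no support. The strands of this region shown here had 4 different seeds.
miR-127: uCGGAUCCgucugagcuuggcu
miR-379: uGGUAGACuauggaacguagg
miR-382: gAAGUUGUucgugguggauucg
miR-409-5p: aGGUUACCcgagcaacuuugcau
Last are miRNAs with a common seed that did not move together. The seed AGCAGCA is shared by miR-195, miR-497 and miR-16, and GAGGUAG by the let-7 strands and miR-98.
miR-195: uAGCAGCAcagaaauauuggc
miR-497: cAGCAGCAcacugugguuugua
miR-16: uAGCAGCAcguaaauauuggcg
let-7i: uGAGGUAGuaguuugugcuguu
let-7d: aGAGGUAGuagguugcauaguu
miR-98: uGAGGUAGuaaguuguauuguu

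Levels are normalized log2 values, that is the cycle threshold (Ct) subtracted from a constant just above 40, after cyclic loess between samples. A Ct of 40 stands for no detection, and a difference of 1 is a doubling if PCR is fully efficient. Each assay has its own efficiency, so levels are compared between samples and not between assays. On plate A, 287 to 292 of the 375 assays were detected in the stroma samples and 268 to 276 in the mature luminal samples. The SD within a group over the 244 tested assays that were detected in all 7 samples had a median of 0.232 in stroma and 0.42 in mature luminal cells. Pearson's r over the assays was 0.989 to 0.995 within stroma, 0.972 to 0.992 within mature luminal cells and 0.752 to 0.781 between a stroma and a mature luminal sample. Of the small RNA controls of plate A, U6 had a mean Ct of 12.72 in stroma and 12.03 in mature luminal cells. Y1 had a mean Ct of 21.35 in stroma and 28.31 in mature luminal cells, a normalized difference of 5.25, the widest of the plate A controls detected. The Y1 assay of plate B was also detected in all 7 samples. Its mean Cts were 24.45 in stroma and 26.31 in mature luminal cells, a normalized difference of 0.000653. The readings of Y1 on the 2 plates thus disagreed, and the cause was not tested. The plant miRNA ath-miR159a, the negative control, stayed at a Ct of 40 in all 7 samples. The samples are bulk, so fewer cells of a type and less RNA per cell cannot be told apart.

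Most plate A miRNAs differed between the 2 populations, in both directions. Of the 291 assays tested, 218 (74.9%) passed an adjusted p of 0.05 in limma's moderated test with Benjamini-Hochberg adjustment. Of these, 106 (36.4% of the tested) were higher in stroma and 112 (38.5%) were lower. In 224 (77.0%) the 2 groups of samples did not overlap. The differences were large: 42 assays were higher in stroma by 6 or more on the log2 scale and 21 were lower by as much. The median difference over all tested assays was -0.32, and the quartiles were -1.97 and 2.46. The split between higher and lower calls rested on the scaling. With U6 alone as the reference the median moved up by 1.73, by unequal amounts over the assays, and 156 assays were called higher and 47 lower. Without any normalization the median moved up by 1.05, with 113 higher and 55 lower. Plate A alone in the loess moved it up by 0.351, with 114 higher and 100 lower. Of the 218 calls, 153 were kept with U6 alone, 40 changed sign and 11 were called the opposite way. With median centring 192 were kept and 3 called the opposite way, and with no normalization 154 and 1. Sizes given below are those of the loess, and for the named assays a scaling that ended a call or turned a direction is given beside the value.

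**Figure D1:**
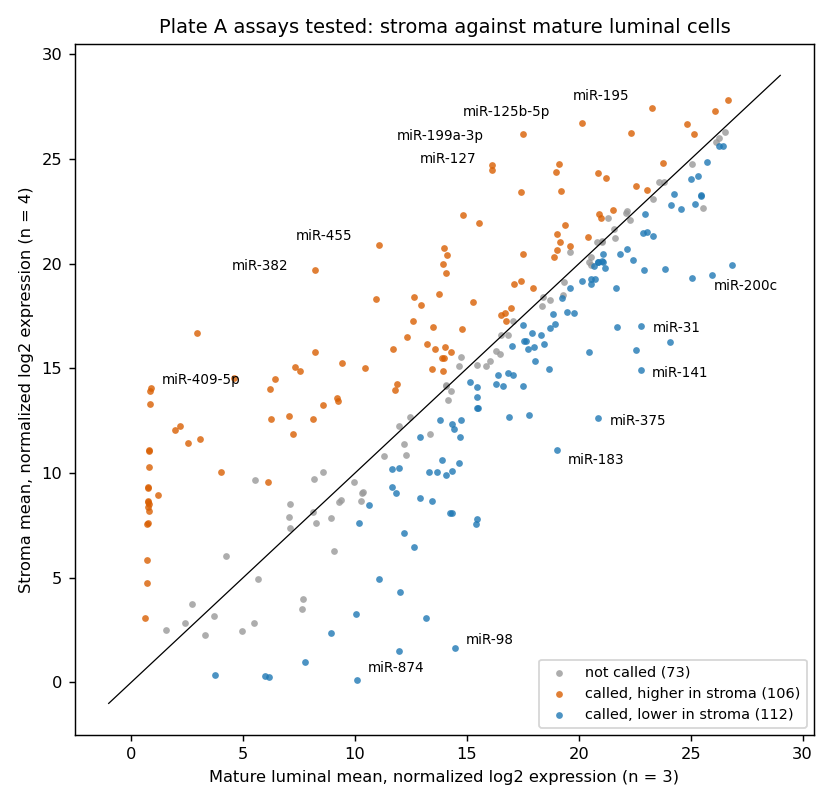
Mean normalized log2 expression of the 291 tested plate A assays in mature luminal cells (horizontal axis, 3 samples) and stroma (vertical axis, 4 samples). The line marks equal levels, orange points are the 106 assays called higher in stroma, blue points the 112 called lower and grey points the 73 not called. The column of points at the left edge holds assays with a Ct of 40 in all 3 mature luminal samples.

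The miRNAs listed for the Dnm3os transcript, miR-199a and miR-214, were all higher in stroma. The mature strands of miR-199a are the same from chromosomes 1 and 9, so its assays cannot tell the 2 copies apart. miR-199a-3p read 26.36, 26.28, 25.99 and 26.09 in the 4 stroma samples and 17.26, 17.42 and 17.91 in the 3 mature luminal samples, a difference of 8.65 (SE 0.28, limma adjusted p = 1.7e-10). miR-214 read 24.92, 24.95, 24.25 and 24.75 in stroma and 16.04, 15.93 and 16.35 in mature luminal cells, a difference of 8.61 (SE 0.26, adjusted p = 1.2e-10). For both miRNAs every stroma sample lay far above every mature luminal sample, and the spread within a group was under 1 on the log2 scale. miR-199a-5p, the other arm of the miR-199a hairpin, differed by 7.32 (SE 0.85, adjusted p = 1.3e-05), and its mature luminal values of 5.73, 8.47 and 8.42 came from Cts above 32. The summed level of these 3 assays was 26.37 to 26.81 in stroma and 17.78 to 18.33 in mature luminal cells. The ranges were far apart, and each of the 3 was detected in all 7 samples.

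The widest group was the miRNAs of the Dlk1-Dio3 region, an imprinted domain whose miRNAs are made from the maternal chromosome only. Plate A held 52 assays for this region. Of these, 25 were detected in all 7 samples, and all 25 were higher in stroma, with differences from 2.18 (miR-667) to 11.50 (miR-382) and a median of 4.71. Among all tested assays detected in all 7 samples, 80 of 244 were higher, and the median was -0.47. Another 21 assays passed the level for testing without detection in every sample. Of these, 14 had a Ct of 40 in all 3 mature luminal samples and so were tested only through their stroma values, and their count is no support. With them 46 were called higher. All 46 were called in the same direction with U6 alone, with no normalization and with plate A alone in the loess, with 45 called under median centring and 44 with a floor at 5.5. Detection in all 4 stroma samples and no mature luminal sample was found for 12.

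Within this region miR-127 is 1 of the miRNAs that lie antisense to the retrotransposon-derived gene Rtl1. It read 24.49, 24.70, 24.42 and 24.31 in stroma and 16.23, 16.05 and 16.10 in mature luminal cells, a difference of 8.36 (SE 0.22, adjusted p = 3.8e-11). miR-379, the first hairpin of the downstream group, read 22.18, 22.73, 22.35 and 22.14 in stroma and 15.06, 14.58 and 14.85 in mature luminal cells, which is 7.52 apart (SE 0.21, adjusted p = 6.2e-11). Both were thus detected in either population, at levels that did not overlap. miR-382 read 19.93, 20.03, 19.16 and 19.70 in stroma against 7.44, 7.95 and 9.24, the largest difference among assays detected in all 7 samples (11.50, SE 0.78, adjusted p = 1.2e-07). The mature luminal values of miR-382 came from Cts of 31.4 to 33.6, late in the reaction. miR-370 (7.71, SE 1.47, adjusted p = 0.00061) and miR-431 (13.77, SE 1.17, adjusted p = 9e-07) had larger errors, and their mature luminal values ran from 4.59 to 10.64 and from 1.06 to 6.01. Further antisense strands, miR-337-5p (7.39, SE 0.20) and miR-434-3p (6.05, SE 0.21), had errors as small as that of miR-127.

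For miRNAs with a Ct of 40 in all 3 mature luminal samples a difference is a lower bound. miR-409-5p read 13.86, 14.09, 14.22 and 14.12 in stroma, at least 13.2 on the log2 scale above a Ct of 40. miR-154 read 13.20, 13.35, 13.37 and 13.26 and was at least 12.4 above it. Its stroma Cts, 25.3 to 26.4, were far from the detection limit. rno-miR-758, miR-668 and miR-665, of the same region, were higher by at least 10.3, 10.2 and 9.50. With values under 5.5 set to 5.5, a level that corresponds to a Ct of 35 before normalization, the bounds fell to 8.57 for miR-409-5p, 7.79 for miR-154 and 4.81 for miR-665, and all stayed past the threshold.

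By position, 44 of the 46 tested assays could be placed on 37 hairpins of RefSeq, which spanned 180.0 kb (chr12:109563692-109743795, GRCm38.p6). The first group, from the miR-770 to the miR-370 hairpin within 54.6 kb, held 14 tested assays with differences from 2.92 to 13.77. The second group, from miR-379 at 145.4 kb to miR-410, held 30 with differences from 2.18 to 13.20. In the first group 4 assays and in the second 10 were not detected in any mature luminal sample, so their direction is no support. The 8 and 16 assays detected in every mature luminal sample were all higher in stroma. Higher levels were therefore found in both groups of hairpins. No assay was placed between 54.6 and 145.4 kb, so that stretch was not covered. Arms of 1 hairpin could differ: miR-337-5p was higher by 7.39 and miR-337-3p by 4.18 (SE 0.67), and miR-434-3p by 6.05 and miR-434-5p by 4.59 (SE 0.31). With U6 alone the order of the miR-434 arms turned (7.73 and 7.92) and the miR-337 arms came closer (10.0 and 7.99). The smallest differences among assays detected in all 7 samples were those of miR-667, miR-376a (2.40, SE 0.26) and miR-136 (2.92, SE 0.22), which rose to 5.45, 5.66 and 5.43 with U6 alone. The call of miR-376b (4.67, SE 1.66, adjusted p = 0.024) was lost without mature luminal replicate 1 (adjusted p = 0.076) or 2 (adjusted p = 0.071) and with MaSC-4 added to the fit (adjusted p = 0.063).

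**Figure D2:**
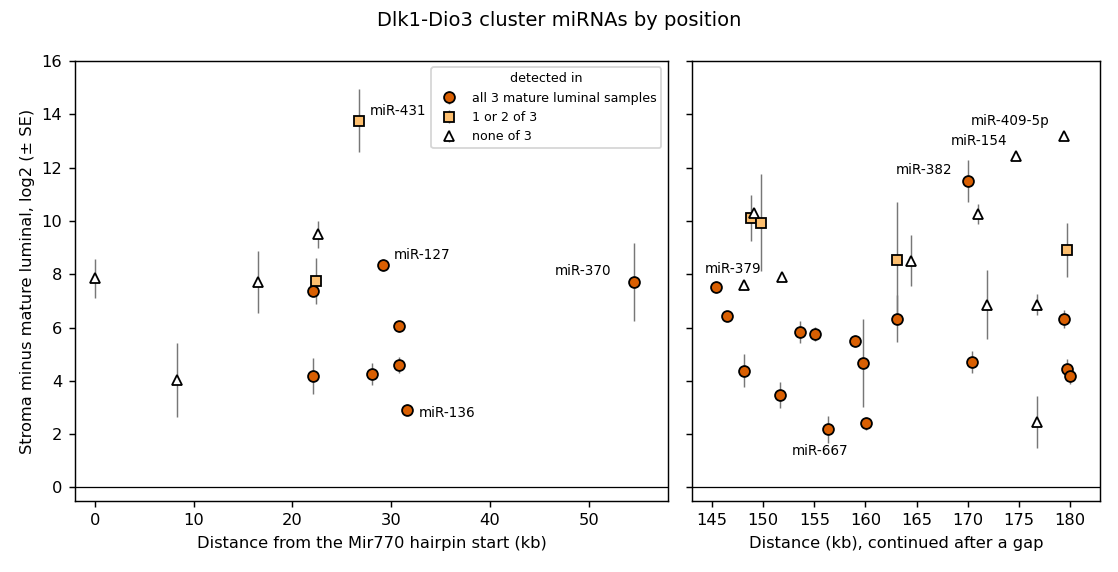
Difference between stroma and mature luminal cells (log2, with SE) of the 44 placed Dlk1-Dio3 assays, by distance in kb from the start of the Mir770 hairpin, with an axis break between the 2 groups of hairpins. Circles were detected in all 3 mature luminal samples, squares in 1 or 2 and triangles in none, and all points lie above 0.

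Some of these miRNAs were measured by a mouse and a rat assay. miR-381 was higher in stroma by 8.54 with the mouse assay and 6.34 with the rat assay, and both were called. miR-377 had a Ct of 40 in all 3 mature luminal samples with either assay. It was higher by at least 6.86 with the mouse assay (2.11 with the floor at 5.5), while the rat assay detected it in 3 of 4 stroma samples with a mean 2.46 above a Ct of 40 (0.13 with the floor). The rat assays for miR-409-5p and miR-543 did not reach the level for testing, while the mouse assays were higher by at least 13.2 and by 5.84. Outside the region, miR-339-3p differed by -5.00 with the mouse assay and by -4.22 with the rat assay, and by -2.64 and -1.66 with U6 alone.

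Other miRNAs higher in stroma included strands hosted by genes of the extracellular matrix and of guidance signals. miR-455, which lies in an intron of the collagen gene Col27a1, read 20.87, 21.17, 20.71 and 20.78 in stroma and 11.61, 10.74 and 10.91 in mature luminal cells, a difference of 9.79 (SE 0.23, adjusted p = 1.3e-11). miR-218, made from introns of Slit2 and Slit3, read 23.75, 23.48, 23.36 and 23.14 against 17.42, 17.48 and 17.37 (6.01, SE 0.20, adjusted p = 2.5e-10). Neither miRNA had overlapping groups. The third miRNA of this list was not called.

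The miRNAs of the Hox clusters lie between homeobox genes that set position along the body. Of 6 assays 5 were higher in stroma and 1 was not called, beside 36.4% higher among all tested assays. Of the 5, 2 had a Ct of 40 in all 3 mature luminal samples. Those 2 were tested only through their stroma values, and their calls are no support. The other 4 of the 6 were detected in all 7 samples. miR-615-3p, in an intron of Hoxc5, read 14.38, 14.22, 13.21 and 13.97 in stroma and had a Ct of 40 in every mature luminal sample, so that it was higher by at least 13.1. Its other arm, miR-615-5p, was likewise detected in all 4 stroma samples alone and higher by at least 8.57. With the floor at 5.5 these bounds were 8.45 and 3.85. rno-miR-196c and miR-196b were higher by 6.78 (SE 0.19) and 5.11 (SE 0.34), with stroma values of 20.64 to 21.05 and 17.80 to 18.38.

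Members of the miR-99/100 and miR-125 families are made together from paralogous transcripts, and 5 of 7 assays were higher and 2 lower. Over all tested assays 36.4% were higher and 38.5% lower. With U6 alone or no normalization 5 of the 7 were higher and 1 lower. miR-125b-5p, a repressor of apoptosis genes, read 26.84, 26.59, 26.67 and 26.85 in stroma and 20.01, 20.42 and 19.95 in mature luminal cells (6.61, SE 0.21, adjusted p = 1.4e-10). miR-99a and miR-100, which share the seed ACCCGUA, were higher by 5.65 (SE 0.24) and 5.38 (SE 0.23). miR-125b-3p, the other arm, differed by 8.04 (SE 0.86, adjusted p = 6.6e-06), with mature luminal values spread from 3.70 to 8.30.

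miR-195 and miR-497 lie side by side on chromosome 11. miR-195 read 27.55, 27.46, 27.52 and 27.31 in stroma and 23.27, 23.87 and 22.67 in mature luminal cells (4.19, SE 0.28, adjusted p = 1.1e-07), and miR-497 was higher by 4.26 (SE 0.15, adjusted p = 4.3e-10). miR-16, which has the same seed and is made from other hairpins, differed by -0.21 with a 95% interval from -0.72 to 0.31, and its groups overlapped. It was called lower in stroma with median centring (-1.80, adjusted p = 6.7e-06) and without mature luminal replicate 3 (-0.52, adjusted p = 0.017).

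miR-143 and miR-145, known from smooth muscle and other contractile cells, were higher in stroma by 2.46 (SE 0.24, adjusted p = 3e-06) and 3.90 (SE 0.27, adjusted p = 1.2e-07). The call of miR-143 was lost when the library labelled MaSC-4 was added to the fit (adjusted p = 0.12). miR-34b-3p and miR-34c, targets of p53, were higher by 4.81 (SE 0.21) and 7.53 (SE 0.35, adjusted p = 3.9e-09). Of the 4 tested assays of the miR-34 and miR-449 list, 2 were higher and 1 was not called. The remaining assay, miR-34a, was lower in stroma (-1.26, SE 0.25, adjusted p = 8e-04). With U6 alone 3 of the 4 were higher and none lower. miR-34c read 15.92, 15.77, 15.78 and 15.62 in stroma and 8.38, 7.66 and 8.67 in mature luminal cells. miR-23a was higher by 7.79 (SE 1.35, adjusted p = 0.00031), although its mature luminal values of 7.10, 7.70 and 3.86 came from Cts above 33. miR-152, a regulator of the DNA methyltransferase Dnmt1, was higher by 3.49 (SE 0.25), let-7i by 2.88 (SE 0.20), and miR-322, of an X-linked cluster that restrains the cell cycle, by 2.42 (SE 0.29).

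**Figure D3:**
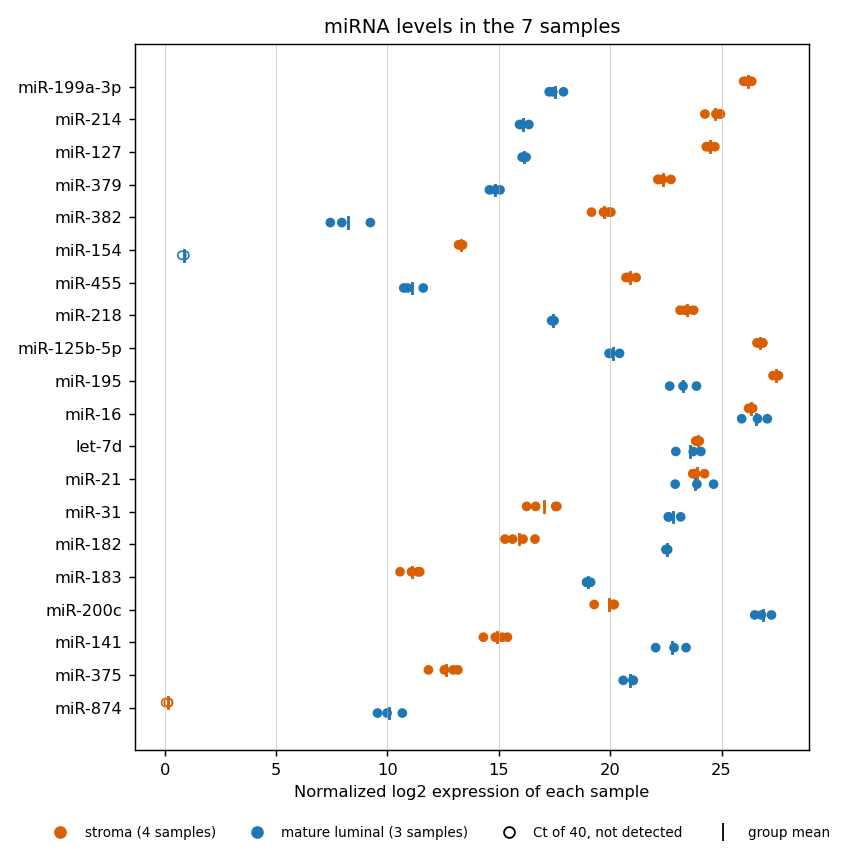
Normalized log2 expression of 20 miRNAs in each of the 4 stroma samples (orange) and 3 mature luminal samples (blue), with vertical bars at the group means and open circles for a Ct of 40. From miR-199a-3p to miR-195 every stroma sample lies above the mature luminal samples, for miR-16, let-7d and miR-21 the groups overlap, and from miR-31 down every stroma sample lies below.

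On the other side stood the miR-200 family and the miR-183 cluster, with 5 and 3 assays. Every one of them was lower in stroma, beside 38.5% of all tested assays. The medians were -6.90 and -7.81, and direction and calls were kept under each of the scalings tried. miR-200c read 20.14, 19.28, 20.19 and 20.13 in stroma and 26.79, 27.24 and 26.49 in mature luminal cells (-6.90, SE 0.25, adjusted p = 4.8e-10). miR-141, from the same place on chromosome 6, read 14.84, 14.31, 15.15 and 15.39 against 22.87, 23.41 and 22.04 (-7.85, SE 0.37, adjusted p = 4.1e-09). No stroma sample came near the mature luminal samples, and yet all 4 were read at Cts of 19.4 to 25.5. The 3 members on chromosome 4, miR-200a, miR-200b and miR-429, differed by -5.74 (SE 0.30), -6.46 (SE 0.33) and -7.83 (SE 0.40). The seed groups were not set apart, since the range for AAUACUG, -7.83 to -6.46, lay within that for AACACUG, -7.85 to -5.74.

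The miR-183 cluster is best known from hair cells and photoreceptors and is also made in epithelia. miR-183 read 11.45, 10.57, 11.08 and 11.37 in stroma and 18.95, 19.12 and 18.95 in mature luminal cells (-7.89, SE 0.21, adjusted p = 4.1e-11). miR-182 read 16.09, 15.28, 16.63 and 15.62 against 22.58, 22.50 and 22.53 (-6.64, SE 0.28, adjusted p = 1.9e-09). Both showed separate groups, with a much wider spread in stroma for miR-182. miR-96 differed by -7.81 (SE 0.35, adjusted p = 3.4e-09). With U6 alone it differed by -4.03. The summed level of these 8 epithelial miRNAs was 20.66 to 21.61 in the stroma samples and 27.48 to 28.38 in the mature luminal samples. The part of epithelial cells or RNA in the stroma sorts in these levels was not tested.

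miR-375, a miRNA of pancreatic islets that is also made in luminal mammary cells, had the largest difference of the assays lower in stroma and detected in all 7 samples. It read 13.17, 11.84, 12.56 and 12.96 in stroma and 21.02, 21.04 and 20.58 in mature luminal cells (-8.25, SE 0.32, adjusted p = 9.7e-10). The 2 groups were over 7 apart at their closest samples. Of the 7 assays listed for luminal and stratified epithelium, 6 were lower in stroma and none higher. Their median was -4.09, and 38.5% of all tested assays were called lower. With U6 alone or no normalization 4 of the 7 were lower, and miR-135b was among those lost (-0.53 with U6 alone). miR-31 (-5.78, SE 0.36, adjusted p = 6e-08) and miR-184 (-4.10, SE 0.40, adjusted p = 3e-06) were called under all scalings.

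Further miRNAs with large and separate levels belonged to no single family. miR-193 was lower in stroma by -7.67 (SE 0.85, adjusted p = 9e-06) with stroma values from 7.43 to 8.17 and mature luminal values from 14.31 to 16.34. miR-32 differed by -6.23 (SE 0.28, adjusted p = 2.7e-09), with 8.14, 8.19, 8.22 and 7.89 in stroma and 14.21, 14.73 and 14.08 in mature luminal cells. miR-210, which rises with hypoxia, differed by -4.71 (SE 0.17, adjusted p = 4e-10), and miR-425 by -4.65 (SE 0.26, adjusted p = 2.4e-08). For assays with stroma Cts near 30 the size depended on the loess. With U6 alone miR-32 differed by -2.45, miR-193 by -4.18 and miR-582-3p by -0.86 (-4.76 as normalized), all still called.

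Some of the largest negative differences were irregular among the stroma samples. miR-98, which has the let-7 seed and lies on the X chromosome, read 14.99, 13.86 and 14.58 in mature luminal cells and between -0.22 and 3.93 in stroma (-12.83, SE 1.37, adjusted p = 6.4e-06), where it was detected in 3 of 4 samples. let-7i, with the same seed, was higher in stroma, as given above. miR-295 of the embryonic stem cell cluster read 11.54, 12.08 and 12.22 in mature luminal cells and was detected in 2 of 4 stroma samples (-10.45, SE 1.10). miR-292-3p of the same cluster was detected in all 7 samples and differed by -6.19 (SE 0.66, adjusted p = 6.6e-06). Of the 11 assays for embryonic stem cell clusters, 5 were tested, only 1 of them detected in all 7 samples. Of the 5, 4 were lower in stroma, beside 38.5% of all tested assays. Among these, miR-295 and miR-291a-3p reached the level for testing only through their mature luminal values, so their calls are no support. miR-139-3p differed by -10.09 with a wide error (SE 1.73, adjusted p = 0.00029) and was detected in 3 of 4 stroma samples.

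miR-211, in an intron of the melanocyte gene Trpm1, varied most within stroma. It read 11.45, 2.28, 11.50 and 7.22 there and 14.78, 15.05 and 12.97 in mature luminal cells (-6.16, SE 1.91, adjusted p = 0.012). The 4 stroma samples thus disagreed by more than the 2 groups differed, and the call was lost with U6 alone (-3.84, adjusted p = 0.1), with no normalization (-4.52, adjusted p = 0.073) with mouse pool as a random block (adjusted p = 0.051) and with MaSC-4 added to the fit (adjusted p = 0.05). miR-504 read 13.04, 12.41 and 10.63 in mature luminal cells and was detected in 3 of 4 stroma samples (-7.73, SE 1.70, adjusted p = 0.0016).

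Detection in every mature luminal sample and no stroma sample was found for 2 assays. miR-874 read 9.99, 10.67 and 9.56 in mature luminal cells and was lower in stroma by at least 9.93 on the log2 scale. rno-miR-219-2-3p read 5.17, 6.75 and 6.04, near a Ct of 35, and was lower by at least 5.67. With the floor at 5.5 the bounds shrank to -4.57 for miR-874 and -0.60 for rno-miR-219-2-3p. The reverse pattern was found for 16 assays, 12 of which belonged to the Dlk1-Dio3 region and 2 to the Hox clusters. These lists held 46 and 6 of the 291 tested assays. Assays of either pattern were tested only through the group in which they were detected, so these counts are no support.

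**Figure D4:**
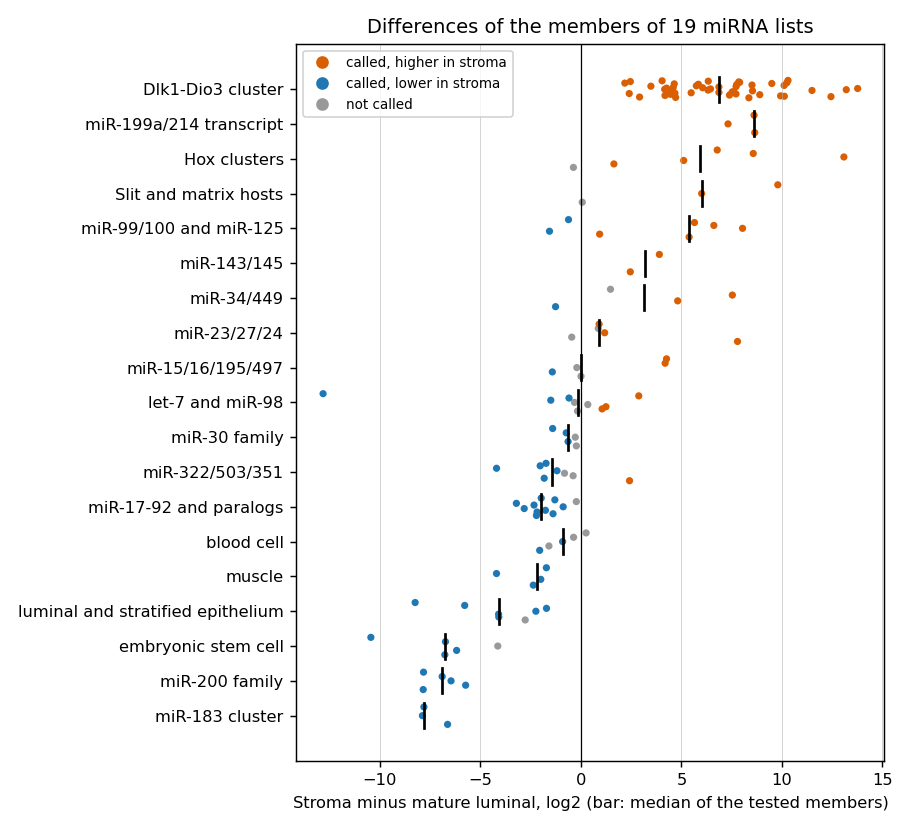
Differences between stroma and mature luminal cells (log2) of the tested members of 19 miRNA lists, with 1 point for each assay and a bar at each median. Orange and blue points were called higher and lower in stroma. The Dlk1-Dio3 assays all lie above 0 and the miR-200, miR-183 and embryonic stem cell lists below it, while lists such as let-7 and miR-98 hold points on both sides.

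Several families had smaller differences. Over all tested assays 36.4% were called higher and 38.5% lower in stroma. The miR-17-92 family and its paralogs, which promote proliferation, had 10 of 11 tested assays lower in stroma with a median of -1.98. The median stayed below 0 under each scaling, and with U6 alone 7 were lower and 1 higher. miR-20b had the largest of these differences (-3.21, SE 0.38, adjusted p = 1.4e-05) and was called under each scaling. Other families had a balance of calls that rested on the scaling. In the let-7 family with miR-98, 3 of 9 assays were higher, 3 lower and 3 not called, with U6 alone 4 higher and 1 lower, and with median centring 1 higher and 7 lower. The X-linked cluster of miR-322 and miR-503 had 1 assay higher and 5 lower of 8, while with U6 alone 5 were higher and none lower. Within it miR-542-5p differed by -4.20 (SE 0.28) as normalized and by -0.79 with U6 alone, where it was not called.

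Markers of other cell types were checked in both sorts. For comparison, 36.4% of all tested assays were called higher and 38.5% lower in stroma. The 4 muscle assays that were tested were lower in stroma with a median of -2.18, yet none was called with U6 alone, where miR-133b differed by -1.05 in place of -4.20. The sum over 3 muscle markers was 15.97 to 16.44 in stroma and 18.14 to 18.59 in mature luminal cells. Of 5 blood cell assays, 2 were lower in stroma and 3 not called, and with U6 alone 2 were higher and none lower. The summed level of the blood markers was 19.8 to 20.99 in stroma and 21.17 to 21.5 in mature luminal cells. The 2 endothelial assays summed to 23.03 to 23.88 in stroma and 24.1 to 24.78 in mature luminal cells. Blood and endothelial miRNAs were read in both populations. On the loess scale, the only one summed, the sums were lower in every stroma sample. Of the 2 endothelial assays 1 was called lower in stroma, and neither was called with U6 alone. Of 4 basal markers, 3 (miR-204, miR-221 and miR-222) were higher in stroma and 1, miR-205, was lower (-1.71, SE 0.51, adjusted p = 0.0097). Before normalization the groups overlapped for miR-205, at Cts of 21.62 to 24.32 in stroma and 20.93 to 22.75 in mature luminal cells. The list of luminal and stratified epithelium also holds miR-205. It had 6 assays lower in stroma, and 4 with U6 alone or no normalization. miR-204 had overlapping groups (0.92, SE 0.38, adjusted p = 0.046). With median centring or no normalization miR-204 was not called higher, and only 1 of miR-221 and miR-222 was. The sums were 24.85 to 25.02 in stroma and 23.71 to 24.08 in mature luminal cells. miR-222 alone had means of 24.84 and 23.75. The part of these cell types in the other differences was not tested.

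Levels close to each other were found for 25 assays, whose 95% interval of the difference lay within 1 of 0. The 6 with the highest means were let-7d, let-7e, miR-16, miR-21, miR-30c and miR-320. let-7e read 25.91, 25.90, 25.47 and 25.98 in stroma and 26.16, 26.56 and 25.69 in mature luminal cells, a difference of -0.32 with an interval from -0.79 to 0.15. miR-21, a miRNA raised by inflammation and growth signals, differed by 0.07 (-0.74 to 0.89), let-7d by 0.34 (-0.21 to 0.89) and miR-30c by -0.28 (-0.89 to 0.33). The groups overlapped for these miRNAs. miR-320 differed by 0.48 (0.07 to 0.89, adjusted p = 0.037) without overlap, and this call was lost in 8 of 25 alternatives. These values hold for the loess scaling. With median centring all 6 were called lower in stroma. The differences were then -0.84 for let-7d (adjusted p = 0.00075), -1.0 for miR-21 (adjusted p = 0.0042) and -0.70 for miR-320 (adjusted p = 0.0089). They were -1.87 for let-7e, -1.87 for miR-30c and -1.80 for miR-16. let-7e was called lower also without mature luminal replicate 3 (-0.55, adjusted p = 0.026). let-7d was called higher with U6 alone (0.83) and without mature luminal replicate 2 (0.59, adjusted p = 0.049). By contrast, miR-532-5p was not called. Its mature luminal replicate 3 read 20.65 and the other two 27.80 and 28.18, against 22.63 to 22.78 in stroma (-2.86, SE 2.66, adjusted p = 0.34). The rat assay for this miRNA was not called either and differed by only -0.74 (adjusted p = 0.21). Its difference ran from -0.91 to -0.60 with 1 library left out and was 1.80 with U6 alone.

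The mature luminal levels were set beside those of the luminal progenitor and MaSC/basal samples to see which were shared by the epithelium. In the same fit 59 of the 291 assays (20.3%) were called higher and 59 (20.3%) lower in mature luminal cells than in the mean of the other 2 epithelial populations. This comparison has the mature luminal samples in common with the one above, so values are given side by side. It depended on 1 library: when MaSC-4 was added, 22 assays were called, 19 higher and 3 lower. miR-200c, lower in stroma by 6.90, stood at 26.84 ± 0.38 in mature luminal cells, 26.34 ± 0.18 in luminal progenitors and 25.32 ± 0.05 in MaSC/basal cells (SD, n = 3 each). miR-183 stood at 19.01 ± 0.10, 18.18 ± 0.12 and 18.46 ± 0.15. The epithelial levels of both thus lay within 2 of each other and far above stroma, at 19.94 ± 0.44 and 11.12 ± 0.40 (n = 4).

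Other miRNAs lower in stroma were not shared by all epithelial cells. miR-375 stood at 20.88 ± 0.26 in mature luminal cells, 18.47 ± 0.26 in luminal progenitors, 14.29 ± 0.44 in MaSC/basal cells and 12.63 ± 0.58 in stroma. It was higher in mature luminal cells than in the mean of the other 2 by 4.50 (SE 0.30, adjusted p = 8.8e-07), and by 3.70 (adjusted p = 0.079) with MaSC-4 added. miR-211 and miR-504 stood at 14.27 ± 1.13 and 12.03 ± 1.25 in mature luminal cells and, among luminal progenitors, at 2.93 ± 1.70 and 2.59 ± 3.06, so that stroma, at 8.11 ± 4.37 and 4.30 ± 2.81, was not the lowest population for either. They were higher in mature luminal cells than in the other 2 by 12.41 (adjusted p = 0.00026) and 9.83 (adjusted p = 0.00059), and both calls held with MaSC-4 (adjusted p = 0.012 and 0.02). miR-874 differed in the same way (7.52, adjusted p = 0.00037). miR-98 was high in mature luminal (14.48 ± 0.57) and MaSC/basal cells (11.52 ± 2.79) and low in luminal progenitors (2.47 ± 1.88).

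Among the miRNAs higher in stroma, some were also high in MaSC/basal cells. miR-34c stood at 17.03 ± 0.30 there, above its 15.77 ± 0.12 in stroma, and at 8.16 ± 0.78 in luminal progenitors, near its mature luminal 8.24 ± 0.52. miR-125b-3p stood at 15.98 ± 0.25 in MaSC/basal cells, 14.48 ± 0.25 in stroma, 9.78 ± 0.76 in luminal progenitors and just 6.45 ± 2.43 in the mature luminal samples. For both, the low level was found in luminal cells. miR-143 and miR-145 were also highest in MaSC/basal cells, at 26.03 ± 0.55 and 28.60 ± 0.57, against 21.83 ± 0.08 and 26.23 ± 0.12 in stroma. In luminal progenitors they stood at 20.50 ± 0.04 and 23.65 ± 0.23, and in mature luminal cells at 19.38 ± 0.31 and 22.33 ± 0.36. miR-214 and miR-455 were different, with 16.70 ± 0.28 and 14.65 ± 0.12 in MaSC/basal cells against 24.72 ± 0.32 and 20.88 ± 0.20 in stroma.

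**Figure D5:**
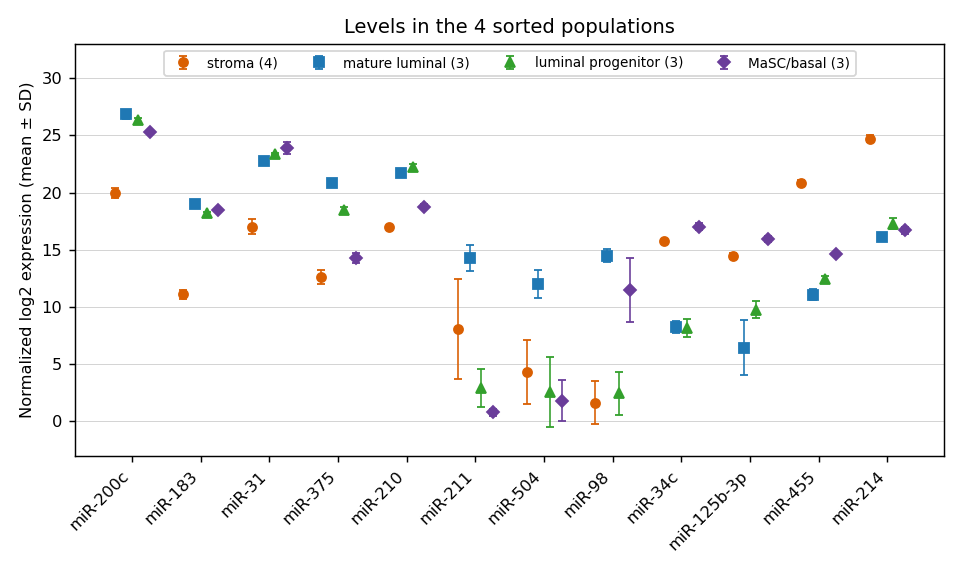
Mean normalized log2 expression with SD of 12 miRNAs in stroma (4 samples) and in mature luminal, luminal progenitor and MaSC/basal cells (3 samples each). miR-200c and miR-183 are high in the 3 epithelial populations, miR-375 falls from mature luminal to MaSC/basal cells, miR-34c and miR-125b-3p are high in MaSC/basal cells and stroma, and miR-214 and miR-455 are highest in stroma.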

How the data were processed

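The authors isolated small RNA from freshly sorted cells, used stem-loop primers for reverse transcription and 12 cycles for pre-amplification, and ran a pair of TaqMan array plates per sample. The deposited raw values are Ct values with 40 for undetected reactions. The authors put them on a log2 scale by subtracting each Ct from a constant just above 40, and deposited these log2 values after cyclic loess over both plates, with U6 weighted 100 (span 0.7, 5 iterations, limma, version not given in the sources used here). Repeating the loess from the Ct values gave the deposited values to within 5.3e-14. Another deposited table, the authors' own comparison of MaSC/basal with luminal cells, holds fold changes and p-values and was not used.

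Plate A assays were matched by ID. The test was limma's (version 3.58.1, R 4.3.3; lmFit, eBayes) over 13 samples, with a mean for each of the 4 populations and no mouse pool term. The library labelled MaSC-4 was left out because the study did not plot it. The fit had 9 residual and 1.54 prior degrees of freedom. Adjustment after Benjamini and Hochberg ran over all 291 tested assays, with calls at 0.05. Of the others, 84 in number, 57 had a Ct of 40 in all 7 samples. Array data give no read depth. The count of detected assays stands for it, and precision is limited by the number of samples. The fit was also run on simulated data with known differences, and the outcome is not given here.

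Named assays were, for each direction, the 12 called assays with the largest difference that were detected in all 7 samples without overlap, up to 6 of the largest bounds, and members of 31 miRNA lists, with the 6 highest means among assays whose interval lay within 1 of 0. miR-582-3p, miR-425, miR-210, miR-339-3p with its rat assay, miR-504 and miR-139-3p were named after their values were seen. miR-34a, miR-204, miR-205, miR-221, miR-222 and miR-291a-3p are given for their lists and are not among the 90 assays counted below. The populations, assays and lists were chosen with earlier results of these data known. Stroma and mature luminal samples of the same number came from different pools. Of 33 strands looked up in RefSeq, 32 were found.

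Alternatives covered the samples in the fit, the filter, the normalization, a floor at 5.5, the variance prior, mouse pool as a block, and each library left out in turn.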

Additional observations from a re-analysis of the deposited data

Results flagged for a closer look

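Among the 90 miRNA assays named, 7 (7.8%) had a stroma sample that stood apart from the other 3 by Dixon's test at 95%, which flags about 1 in 20 groups by chance. No mature luminal group could be looked at, since 3 samples are too few for it. miR-200c read 19.28 in stroma replicate 2 and 20.13 to 20.19 in the others, and miR-210 read 16.80 in the same replicate and 17.04 to 17.08 in the others. let-7e read 25.47 and miR-320 read 23.31 in stroma replicate 3, below 25.90 to 25.98 and 23.58 to 23.61. miR-874, at a Ct of 40 in all 4 stroma samples, read 0.0457 in replicate 3 and 0.163 to 0.173 in the others, a gap made by the normalization alone. miR-376b read 12.99 in stroma replicate 4 and 13.32 to 13.38 in the others, and miR-431 read 15.87 in stroma replicate 1 and 16.88 to 17.06 in the others.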

How the results depend on the processing

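Between stroma and mature luminal cells the number of called assays stayed within 1.5 times of 218 in all alternatives run. Leaving out 1 library at a time gave 209 to 221 called assays, 99 to 108 higher and 109 to 114 lower in stroma. The count lower in stroma went from 112 down to 47 when U6 alone set the scale and to 55 with no normalization, and the higher share of calls rose to 76.8% and 67.3%. With mouse pool as a random block 207 assays were called, 101 higher and 106 lower. No fixed paired analysis was possible between stroma and mature luminal cells because pool 5 held stroma only, and same-numbered samples of both groups deviated from their means with correlations of -0.080, -0.049 and 0.012. The comparison of mature luminal cells with the other epithelial populations gave 118 calls, 22 with all 14 samples, 73 with no normalization, 115 with mouse pool as a fixed block, and 92 to 125 with 1 library left out. Of the 90 named assays 83 were called, and 75 of them kept direction and call in every alternative. The other 8 lost the call somewhere: miR-376b, rno-miR-377, miR-143, miR-135b, miR-211, miR-542-5p, miR-133b and miR-320. Among the assays not called, let-7e, miR-16 and miR-30c were called lower with median centring. The direction turned for let-7d (-0.841), miR-21 (-1.0) and miR-320 (-0.698) with median centring and for rno-miR-532-5p (1.80) with U6 alone, from 0.34, 0.07, 0.48 and -0.74. Each of these was called in its turned direction. The cause was not tested. Values from Cts above 35 limit the bounds and the irregular assays.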
